A study of Mus musculus with 8 samples.

Results

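The genes examined were 8 genes of salt transport in the thick ascending limb, taken by symbol from the deposited count table: Slc12a1, Umod, Kcnj1, Bsnd, Cldn16, Cldn19, Ppp1r1a and Ptger3. All 8 symbols were found among the 23504 listed. They were measured by RNA sequencing of renal cortex from wild type C57Bl6/J mice on a high fat diet (4 libraries, A, B, F and G) or a control diet (4 libraries, I, J, L and M). Per the labels, both diets began at 6 weeks of age and lasted 9 weeks, the capsule was removed and the outer cortex was dissected by hand. The labels do not say that each library came from its own mouse, so a p-value reflects the spread among these libraries and perhaps no more. The comparison answers which of these genes differed in level between the diets.

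The thick ascending limb is the stretch of the nephron that reabsorbs salt without water and so dilutes the tubular fluid. The apical cotransporter NKCC2 (Slc12a1), the target of loop diuretics, carries sodium, potassium and chloride into the cell. The potassium channel ROMK (Kcnj1) returns potassium to the lumen, chloride leaves through basolateral channels that need the subunit barttin (Bsnd), and the resulting voltage drives calcium and magnesium between the cells through claudin 16 and claudin 19. Uromodulin (Umod), the main protein of normal urine, is made by the same cells. Inhibitor 1 (Ppp1r1a) blocks protein phosphatase 1 once protein kinase A has phosphorylated it, and EP3 (Ptger3) is the prostaglandin E2 receptor that lowers cAMP. Kcnj1 and Bsnd are also made in other segments of the distal nephron.

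Sequence just upstream of the start sites of 4 of these genes is shown because they encode the cotransporter, its potassium channel, a claudin and uromodulin, the roles the results are ordered by. The sequences are from RefSeq on GRCm38.p6, 5′ to 3′ on the gene's strand, cut where an annotated exon of the gene begins. Windows existed for 6 of the 8 genes, and Bsnd and Ppp1r1a had none. Capitals mark a match, on either strand, to 1 of 4 motifs searched in the 250 bases before the start. Estrogen-related receptors, which include Esrrb, bind AAGGTCA. The motif taken for TFAP2 factors was GCCNNNGGC. The core letters of cAMP response elements are TGACG. The last motif was the TATA box, TATAAA. None of these motifs contains another.
Slc12a1, chr2:125152350-125152504 (+ strand): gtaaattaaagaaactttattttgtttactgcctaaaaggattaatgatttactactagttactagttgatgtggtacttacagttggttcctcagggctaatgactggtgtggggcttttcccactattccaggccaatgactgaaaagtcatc
Umod, chr7:119479283-119479512 (- strand): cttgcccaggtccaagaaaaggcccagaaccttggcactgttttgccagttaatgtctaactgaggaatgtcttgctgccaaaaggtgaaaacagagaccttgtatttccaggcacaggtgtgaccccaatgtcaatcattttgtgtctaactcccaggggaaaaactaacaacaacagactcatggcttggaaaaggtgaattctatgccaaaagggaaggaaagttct
Kcnj1, chr9:32393735-32393984 (+ strand): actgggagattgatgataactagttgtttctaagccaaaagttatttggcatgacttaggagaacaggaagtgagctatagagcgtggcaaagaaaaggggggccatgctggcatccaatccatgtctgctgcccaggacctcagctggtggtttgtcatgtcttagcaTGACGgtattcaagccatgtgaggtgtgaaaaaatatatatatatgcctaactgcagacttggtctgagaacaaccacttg
Cldn16, chr16:26462885-26463134 (+ strand): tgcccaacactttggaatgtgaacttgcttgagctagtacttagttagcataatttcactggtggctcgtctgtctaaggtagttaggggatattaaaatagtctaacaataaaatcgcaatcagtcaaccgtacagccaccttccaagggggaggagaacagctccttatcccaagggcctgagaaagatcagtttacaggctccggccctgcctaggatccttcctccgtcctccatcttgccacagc
TGACG stood 81 bases before the Kcnj1 start and in 1 of the 6, beside 17.8% of 32851 windows of the same length. The motif for estrogen-related receptors, that for TFAP2 factors and the TATA box, present in 4.08%, 13.7% and 12.4% of all windows, were not found in these 6 genes. The Kcnj1 window precedes an internal start and lies within the bounds of the longer gene model. For Slc12a1, the bases just after the start used (125152600) did not occur as a run in a GENCODE M21 transcript of the gene. Its sequence shown ends at 125152504, short of that start. These matches describe letters in a window and are not binding sites.

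The values are RSEM expected counts, tested after rounding with edgeR. Levels are given as CPM, counts per 1000000 counts after TMM scaling, with Rn45s, the precursor of ribosomal RNA, left out. Rn45s took 50.3% of counts in control J and 1.23% to 13.3% in the other 7 libraries. The counts left ran from 13993652 in control J to 30403685 in control M. Of 14711 genes tested, 9.99% were called, 5.13% lower and 4.86% higher on the high fat diet, at a Benjamini-Hochberg adjusted p under 0.05. Red cell genes also stood apart in 2 libraries, with a summed 2332 CPM in high fat G and 904 in control J against 404 to 589 in the other 6. The defining products of the segment, Umod and Slc12a1, both among the genes examined, were abundant. Umod lay at 2185 CPM or more and Slc12a1 at 444 CPM or more in every library. Their level does not show in which segment the other genes changed.

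Of the 8 genes, 6 fell on the high fat diet, none rose and 2, Umod and Ptger3, did not pass the test. Over all tested genes, 5.13% were called lower and 4.86% higher. DESeq2 also called 6 lower (6.02% of all genes) and none higher (6.4%). Without control J the count was 6 (2.55% of genes lower, 2.84% higher), without high fat F or control I it was 4 (2.15% and 2.45% lower, 2.84% and 2.92% higher), and without J and high fat G together it was 2, Slc12a1 and Bsnd (1.17% lower, 1.66% higher). The 6 that fell were Slc12a1, Kcnj1, Bsnd, Cldn16, Cldn19 and Ppp1r1a, by 0.30 to 0.57 on the log2 scale. In each of these 6 the 4 high fat values lay below all 4 control values, as in 9.2% of all tested genes. The median log2 change of the 8 genes was -0.39, beside a median near 0 (-0.0023) over all tested genes. In tissue RNA, fewer cells of a type and less RNA per cell cannot be told apart.

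**Figure D1:**
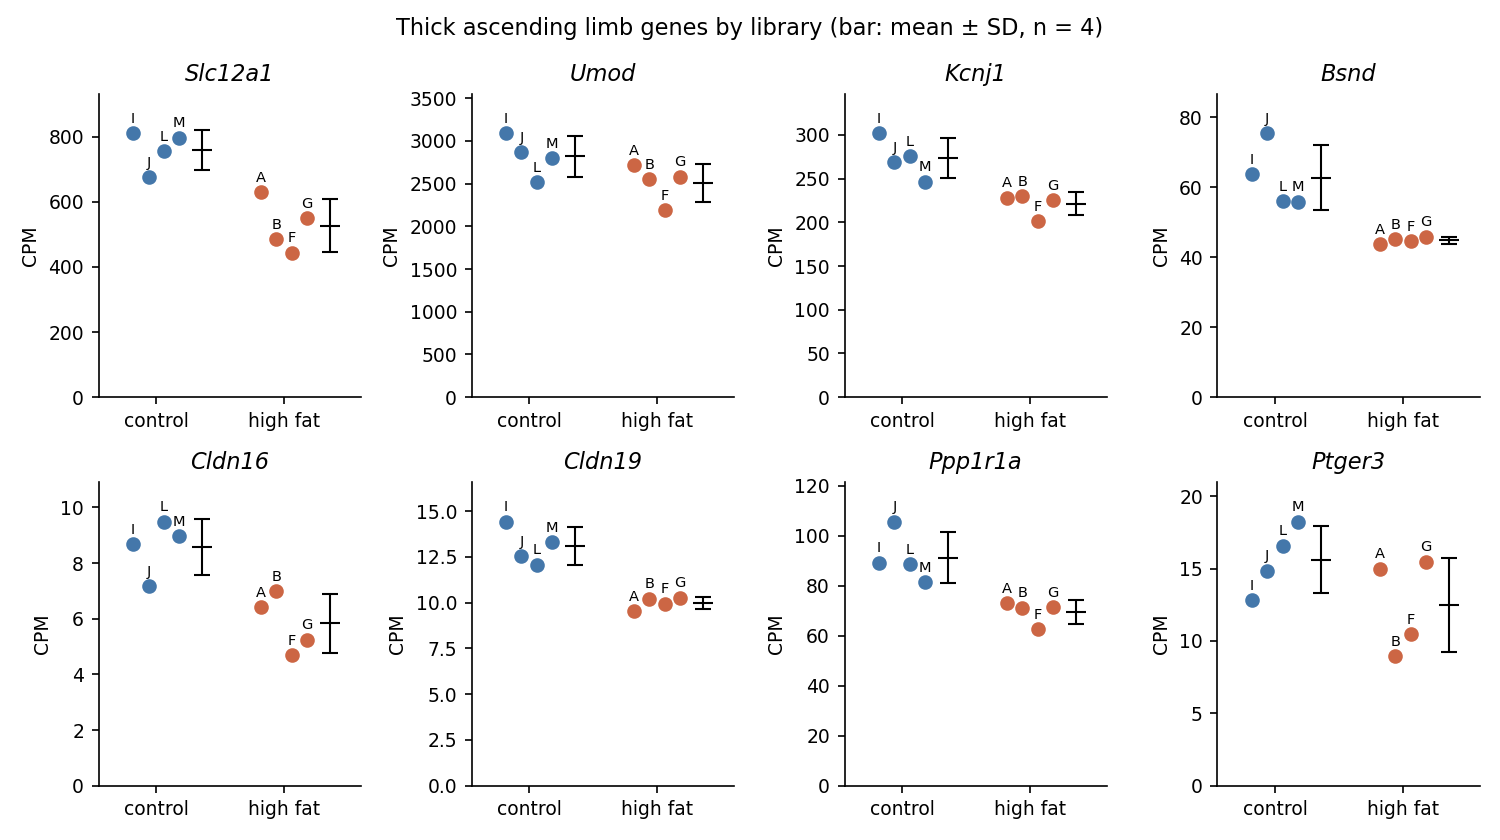
Level of each of the 8 genes in CPM (vertical axis, from 0) in the 4 control and 4 high fat libraries. Points are libraries with their letters and the bar beside them is the mean ± SD (n = 4). High fat and control points do not overlap in 6 panels and overlap for Umod and Ptger3.

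Slc12a1 (chromosome 2, 125152505 to 125230002, plus strand, 28 merged exons) carried the salt entry step. Its control values were 811 CPM in I, 675 in J, 756 in L and 798 in M. On the high fat diet it stood at 630.1 CPM in A, 486 in B, 444 in F and 549 in G. Library A lay closest to the controls and F farthest, and control J was the lowest control. The mean went from 759.9 ± 61.3 to 527 ± 81.0 CPM (SD, n = 4), and the log2 fold change was -0.53 ± 0.10 (SE; 95% interval -0.75 to -0.30), a fitted fold of 0.694 (adjusted p = 0.0118, edgeR). Every fit that left out 1 library kept this call, with adjusted p in edgeR from 0.0064 to 0.0364, and so did the fit without control J and high fat G (adjusted p = 0.0346). An antisense gene, Gm14002, overlaps Slc12a1 in GENCODE M21, and the sources used here do not say whether counting used strand.

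Kcnj1 (chromosome 9, 32372493 to 32399197, plus strand), the channel that recycles potassium for Slc12a1, showed a smaller fall. Control libraries I, J, L and M held 302, 269, 276 and 247 CPM. High fat libraries A, B, F and G held 228, 230.1, 201 and 226 CPM. The lowest control, M, was close to the highest high fat library, B. The log2 fold change was -0.30 ± 0.07 (SE; adjusted p = 0.0219, edgeR), from 273 ± 22.8 to 221 ± 13.4 CPM (SD, n = 4). The call ended without control I and without high fat F (adjusted p = 0.06 and 0.0618 in edgeR) and without J and G together (0.0847).

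Bsnd (chromosome 4, 106483456 to 106492283, minus strand), the barttin subunit of the basolateral chloride channels, was nearly constant on the high fat diet. Its 4 values there were 43.6, 45.2, 44.6 and 45.9 CPM in A, B, F and G. On the control diet it was 63.7 CPM in I, 75.5 in J, 56.0 in L and 55.8 in M, so J was the highest of the 8 libraries. The mean went from 62.7 ± 9.24 to 44.8 ± 0.959 CPM (SD, n = 4), with a log2 fold change of -0.48 ± 0.09 (SE; adjusted p = 0.0097, edgeR). Without control J the change was -0.38 and the call stood (adjusted p = 0.012, edgeR), and it stood in the other 7 fits without a library and without J and G (adjusted p = 0.0268).

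Both claudins of the calcium and magnesium path were called lower on the high fat diet. Cldn16 (chromosome 16, 26463135 to 26482765, plus strand) forms the pore with claudin 19. Its control values were 8.68, 7.16, 9.49 and 8.97 CPM in I, J, L and M, against 6.41, 6.99, 4.68 and 5.24 CPM in A, B, F and G. Control J and high fat B nearly met, and these values rest on 92 to 284 expected counts per library. The log2 fold change was -0.57 ± 0.14 (SE; adjusted p = 0.0258, edgeR), from 8.57 ± 1.00 to 5.83 ± 1.06 CPM (SD, n = 4). The call held in 4 of the 8 fits that left out a library and ended without control I or L or high fat F or G (adjusted p up to 0.0669 in edgeR), and without J and G together (0.0685).

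Cldn19 (chromosome 4, 119255414 to 119262438, plus strand), the partner of claudin 16 in the tight junction, varied less. It lay at 14.4, 12.5, 12.1 and 13.3 CPM in control I, J, L and M. High fat A, B, F and G held 9.52, 10.2, 9.94 and 10.3 CPM. The diets were separated by more than the whole range of the high fat libraries. The mean went from 13.1 ± 1.03 to 9.99 ± 0.342 CPM (SD, n = 4), and the log2 fold change was -0.39 ± 0.08 (SE; adjusted p = 0.0147, edgeR). It was called without any 1 library (adjusted p up to 0.0432 in edgeR) but not without J and G together (0.0569). The files list 2 transcripts for Cldn19, and per kilobase its order differed: high fat A, lowest in CPM, was highest of its diet in FPKM (4.53). An antisense gene, Gm12927, overlaps it.

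Ppp1r1a (chromosome 15, 103530279 to 103538003, minus strand), the phosphatase inhibitor under control of cAMP, also fell. Control I, J, L and M held 89.2, 106, 88.5 and 81.4 CPM, with J highest as for Bsnd. High fat A, B, F and G held 72.9, 71.1, 62.5 and 71.4 CPM. The log2 fold change was -0.39 ± 0.08 (SE; adjusted p = 0.0156, edgeR), from 91.2 ± 10.2 to 69.5 ± 4.73 CPM (SD, n = 4). Without control J it was -0.31 and still called (adjusted p = 0.0312, edgeR). Each of the other fits without 1 library called it too, and the fit without J and G did not (0.0565).

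Umod (chromosome 7, 119462711 to 119479282, minus strand), by far the most abundant of the 8, did not pass. Its control values were 3091, 2868, 2513 and 2798.5 CPM in I, J, L and M, and its high fat values 2712, 2551, 2185 and 2579.7 CPM in A, B, F and G. Control L lay below 3 of the high fat libraries. The log2 difference was -0.17 ± 0.08 (SE), with a 95% interval of -0.36 to 0.02 and adjusted p = 0.23 in edgeR. It overlaps the interval of Slc12a1, -0.75 to -0.30. Counts were not limiting, at 36856 or more per library. Gm44588, an antisense gene, overlaps Umod in GENCODE M21.

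Ptger3 (chromosome 3, 157566892 to 157645888, plus strand), the EP3 receptor, was the most variable. It lay at 12.8, 14.9, 16.6 and 18.2 CPM in control I, J, L and M. The high fat libraries split, with A at 15.0 and G at 15.5 CPM but B at 8.95 and F at 10.5. The first pair lay among the controls and the second below all of them. The log2 difference was -0.33 ± 0.17 (SE), close to that of Kcnj1, but its 95% interval ran from -0.71 to 0.05 (adjusted p = 0.24, edgeR). No fit without 1 library called it or Umod.

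**Figure D2:**
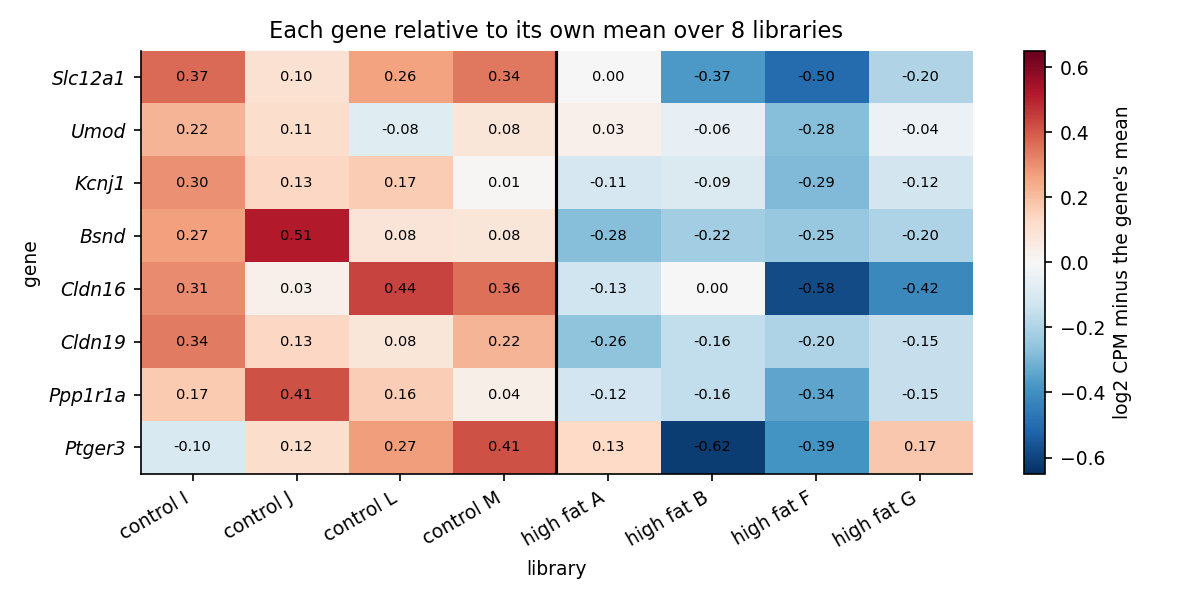
Each cell is a gene's log2 CPM in 1 library minus the gene's mean over the 8 libraries (color scale, log2 units), with control libraries left of the line and high fat libraries right of it. High fat F and B are below the mean for all 8 genes, control J is highest for Bsnd (0.51) and Ppp1r1a (0.41), and Ptger3 follows its own order.

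The median level of the 8 genes differed among libraries of a diet, as the map of relative levels shows. The median of the 8 relative log2 levels was -0.32 in high fat F, -0.16 in B, -0.15 in G and -0.11 in A, against 0.28 in control I, 0.16 in L, 0.15 in M and 0.12 in J. Library F was thus the lowest and I the highest, and these are the libraries without which the call of Kcnj1 ended. All 8 genes were below their means in high fat F and B and above them in control J and M. After each diet's mean was subtracted, the median Pearson correlation over the 28 pairs of genes was 0.16, with 19 pairs above 0 and a range from -0.55 (Bsnd and Cldn16) to 0.78 (Bsnd and Ppp1r1a), a description over 8 libraries.

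Slc12a1 and Umod are products of the same cells, and their ratio was compared between the diets. The log2 ratio of Slc12a1 to Umod counts, which does not depend on library scaling, was -1.93 in control I, -2.09 in J, -1.73 in L and -1.81 in M. On the high fat diet it was -2.11 in A, -2.39 in B, -2.30 in F and -2.23 in G. All 4 high fat libraries lay below all 4 controls, although A and J nearly met. The mean ratio differed by -0.37, from -1.89 ± 0.15 to -2.26 ± 0.12 (SD, n = 4; two-sided exact permutation test, p = 0.0286, which is the lowest value 70 assignments can give; p = 0.0571 without any 1 of A, B, F, G, L or M). Relative to Umod, the mean of each of the other 6 genes was lower on the high fat diet as well, by 0.13 for Kcnj1 to 0.40 for Cldn16. Of these 6 ratios Ppp1r1a alone did not overlap between the diets, although high fat F (-5.13) and control I (-5.11) nearly met. The 6 were not tested.

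**Figure D3:**
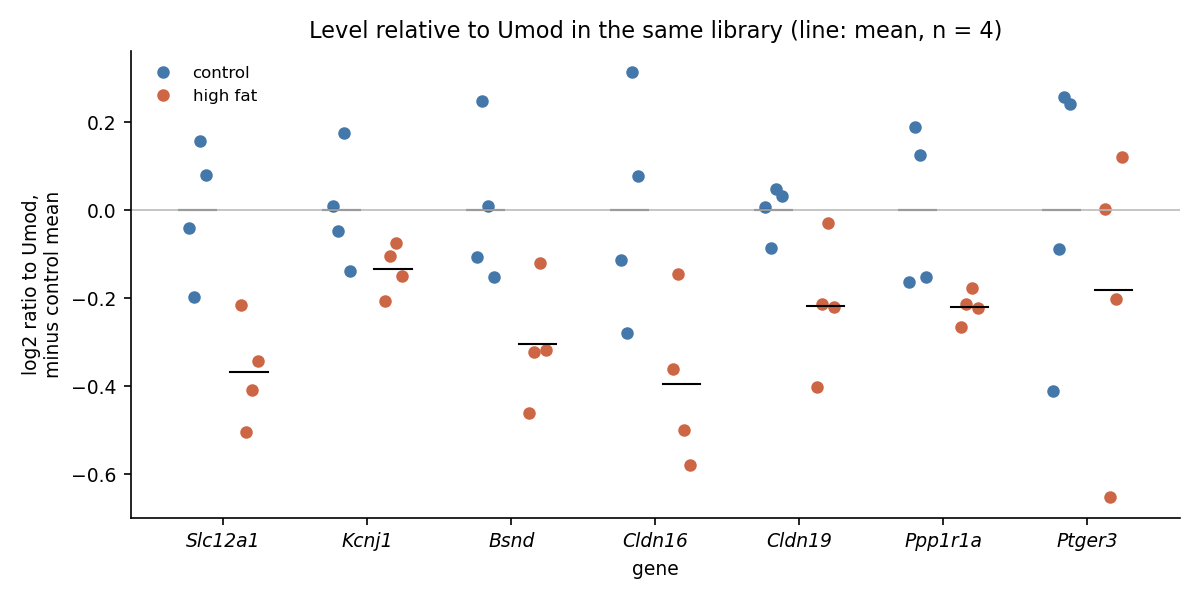
Log2 ratio of each gene's count to that of Umod in the same library, minus the control mean of that ratio (vertical axis, log2 units). Points are libraries and lines are means (n = 4). Slc12a1 and Ppp1r1a do not overlap between the diets, though in each the diets nearly meet, and the other 5 genes do.

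Set against Slc12a1 instead, the 6 ratios differed by less than against Umod for Cldn16, Bsnd, Cldn19 and Ppp1r1a, by more for Kcnj1 and by about as much for Ptger3. The diet difference in log2 ratio to Slc12a1 was -0.03 for Cldn16 and 0.06 for Bsnd. It was 0.15 for Cldn19 and for Ppp1r1a, 0.18 for Ptger3 and 0.23 for Kcnj1. All 6 ratios overlapped between the diets and were not tested.

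Compared per kilobase, the order of the genes was the same in every library for the first 5. FPKM values were divided by the share of counts outside Rn45s for this comparison. Control means were 1166 ± 108 FPKM for Umod, 166 ± 21.6 for Slc12a1, 90.8 ± 9.29 for Kcnj1, 73.3 ± 3.90 for Ppp1r1a and 23.5 ± 2.05 for Bsnd (SD, n = 4). The ranges of these neighbors did not overlap on the control diet. Ptger3, Cldn16 and Cldn19 followed at 7.99 ± 1.44, 7.73 ± 1.31 and 5.66 ± 0.780 FPKM (SD, n = 4), and the ranges of Ptger3 and Cldn16 overlapped. On both diets Cldn19 was lowest in each library. On the control diet Umod was at 707% of Slc12a1, as the mean of the ratios within each library. On this scale the diets overlapped for Slc12a1, with control J at 134.6 and high fat A at 135.5 FPKM, and for Cldn16, with control J at 5.84 and high fat B at 6.14. The other 4 called genes did not overlap.

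The other genes of the segment and its pathway were read from 5 lists by role. Of 45 genes, 44 were matched and 41 tested, and 7 fell, 3 rose and 31 did not pass, beside 5.13% lower and 4.86% higher over all genes. Their median log2 change was -0.09. DESeq2 called 11 lower and 3 higher (6.02% and 6.4% of all genes). Without J and G, 2 were lower and 1 higher (1.17% and 1.66% of all genes).

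Among 10 transport partners, 2 fell and 2 rose. Kcnj16, a basolateral potassium channel subunit made in several tubule segments, rose from 662 ± 41.2 to 799 ± 10.7 CPM (SD, n = 4; log2 fold change 0.27 ± 0.06 SE, adjusted p = 0.0163 in edgeR) and was called in all 8 fits without a library but not without J and G (0.0776). Subunits of the sodium pump, which powers the whole segment and is made along the whole tubule, did not pass: the difference was 0.04 for Atp1b1 and 0.06 for Fxyd2. Slc12a7, a potassium and chloride cotransporter, differed by 0.17 (adjusted p = 0.33, edgeR), and Slc9a3, the sodium and proton exchanger, by -0.0014 (95% interval -0.14 to 0.13).

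None of the 3 tested paracellular partners passed. Cldn10, the sodium-selective claudin of the segment, lay at 141 ± 13.8 CPM on the control and 133 ± 15.1 on the high fat diet (SD, n = 4; 95% interval of the log2 difference -0.28 to 0.11, adjusted p = 0.58 in edgeR). Cldn14, which opposes claudin 16 and claudin 19, had 20 expected counts over all 8 libraries and was not tested. Cldn3 and Tjp1 differed by -0.23 and -0.04.

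Of 9 kinase and trafficking genes 1 fell. Stk39, encoding SPAK, a kinase that phosphorylates NKCC2 and its relative NCC, held 35.3, 38.7, 37.0 and 36.1 CPM in control I, J, L and M. In high fat A, B, F and G it held 29.6, 27.9, 24.9 and 29.9 CPM. The groups were well apart, with a log2 fold change of -0.39 ± 0.07 (SE; adjusted p = 0.0075, edgeR) that was called in all 8 fits without a library and without J and G (adjusted p = 0.0308). Oxsr1, the kinase most like SPAK, differed by -0.02 (95% interval -0.13 to 0.10), Wnk1 by 0.01 and Wnk4 by 0.03. The catalytic subunit gene Ppp1ca, whose product inhibitor 1 blocks, lay at 206 ± 12.2 against 181 ± 5.35 CPM (SD, n = 4; adjusted p = 0.06, edgeR). Cab39, a scaffold that activates SPAK, and Maged2, a regulator of NKCC2 at the cell surface, differed by -0.14 and -0.22 (adjusted p = 0.12 and 0.14, edgeR).

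Of 9 tested receptor and cAMP genes 1 fell. Avpr2, the vasopressin V2 receptor, went from 15.8 ± 1.09 to 11.5 ± 0.976 CPM (SD, n = 4), and the log2 fold change was -0.45 ± 0.08 (SE; adjusted p = 0.0101, edgeR) called in all 8 fits without a library but not without J and G (0.0646). Avpr2 is also a principal cell marker, and its gene overlaps L1cam and Arhgap4 on the opposite strand. Casr, the calcium-sensing receptor, was at 65.5 ± 6.25 and 56.8 ± 3.27 CPM (SD, n = 4; adjusted p = 0.10, edgeR), and Nos1, a macula densa gene, at 1.01 ± 0.205 and 0.599 ± 0.197 CPM (adjusted p = 0.12, edgeR). Gcgr, the glucagon receptor, differed by -0.13. The prostaglandin receptors Ptger1 and Ptger4 differed by -0.03 and 0.00. Ptger2 and the cyclooxygenase gene Ptgs2 had 43 and 79 expected counts in all and were not tested.

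Of 10 identity genes 3 fell and 1 rose. Irx2, a homeobox gene, fell by 0.59 (adjusted p = 0.0321), Mal, a membrane sorting protein gene, by 0.29 (0.0465) and Tmem72 by 0.22 (0.0328; all edgeR). These calls held in 3, 2 and 2 of the 8 fits that left out a library. Egf, the abundant growth factor precursor of distal tubules, lay at 1818 ± 59.7 and 1576 ± 141 CPM (SD, n = 4; adjusted p = 0.0885, edgeR), and Irx1 and Esrrb had adjusted p = 0.0705 and 0.0524. 

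**Figure D4:**
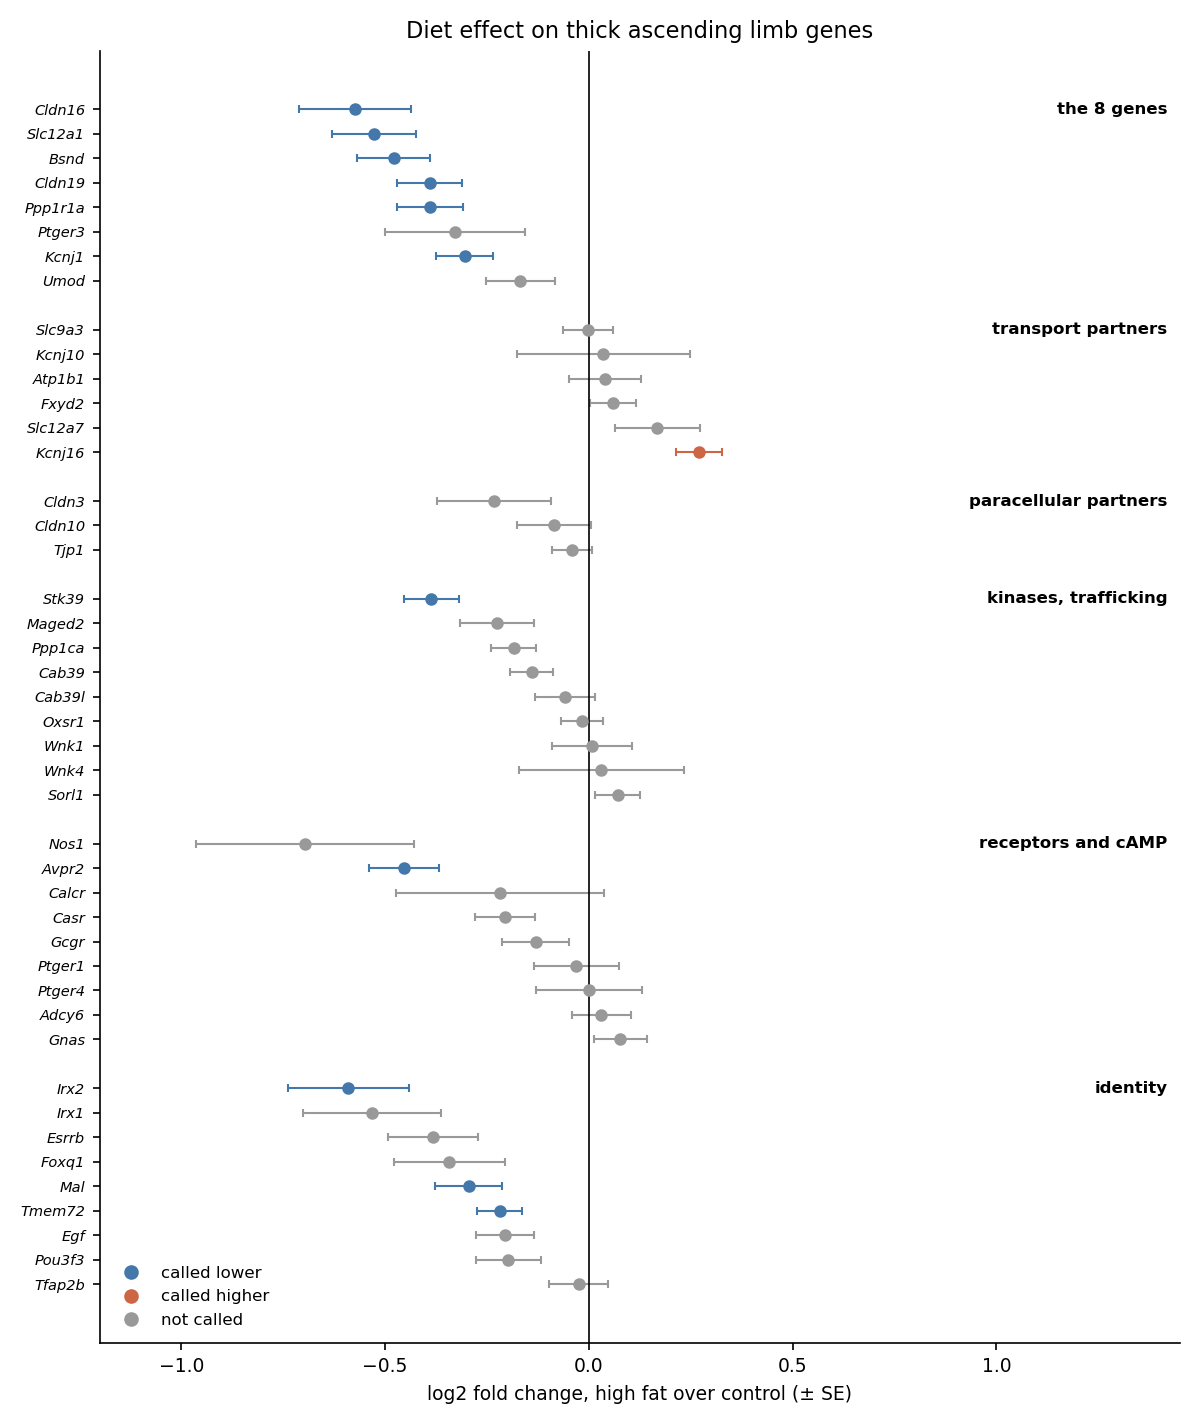
Log2 fold change, high fat over control, with its SE (horizontal axis) for the 8 genes and other tested thick ascending limb genes, grouped by role and colored by the edgeR call. The 8 genes all lie left of 0, and Kcnj16, among the transport partners, lies right of 0.

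Markers of other cells were summed in each library. Beside the counts of called markers below stand 5.13% lower and 4.86% higher over all tested genes. The intercalated cell sum was lower on the high fat diet without overlap, at 679 to 745 against 795 to 899 CPM. Of its 10 markers 3 were called lower, and the log2 change was below 0 in 8 and above it in 2. Car2, among the 3 called, made 38.5% of the sum. Principal cell markers ran from 338 to 406 against 374 to 481 CPM, with 3 of 10 called lower. Among these 3, Avpr2 is the receptor gene given above, and Aqp4 is counted again among the medulla and thin limb markers. Fxyd4, not called, is on both lists too. Slc4a1, also not called, is on the intercalated cell and the red cell list. Markers of medulla and thin limb ran from 789 to 887 against 807 to 1021 CPM, with 4 of 9 tested called lower and none higher. The median log2 change of these 9 was -0.55, larger in size than the -0.39 of the 8 genes. The 4 called were Aqp4 (-1.89), Cryab (-0.73), Slc5a3 (-0.65) and Tspan8 (-0.36), named after their values were seen. Of the 9, 7 lay below 0 and 2 above it, the higher at 0.67 (adjusted p = 0.0515, edgeR). Slc14a2, the urea transporter of the inner medulla, and 1110032A04Rik were at 0 in some libraries, and 52.2% of that sum came from Slc6a6, which cortex also makes and which differed by 0.22 (adjusted p = 0.17, edgeR). Distal convoluted tubule markers overlapped fully, at 1901 to 2488 against 1924 to 2518 CPM, with 1 of 10 called lower, and Slc12a3, the thiazide-sensitive cotransporter, differed by 0.05. Proximal tubule markers ran from 30376 to 31630 against 28914 to 31438 CPM, with 3 of 12 higher and 2 lower. Podocyte (325 to 366 against 349 to 379 CPM, 1 of 8 called lower) and endothelial sums (539 to 571 against 535 to 566, none called) overlapped. Podxl, which differed by -0.06, made 55.3% of the podocyte sum. Of the 8 podocyte markers 7 lay below 0 and 1 above it. The fat sum of 32.1 to 41.9 CPM came to 97.5% from Fabp4, and Adipoq, Plin1, Cidec, Lep and Retn were each at 0 in some libraries. Red cell markers ran from 438 to 2332 against 404 to 904 CPM, with none of 6 tested called. The part of these markers in the fall of the 6 genes was not tested.

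**Figure D5:**
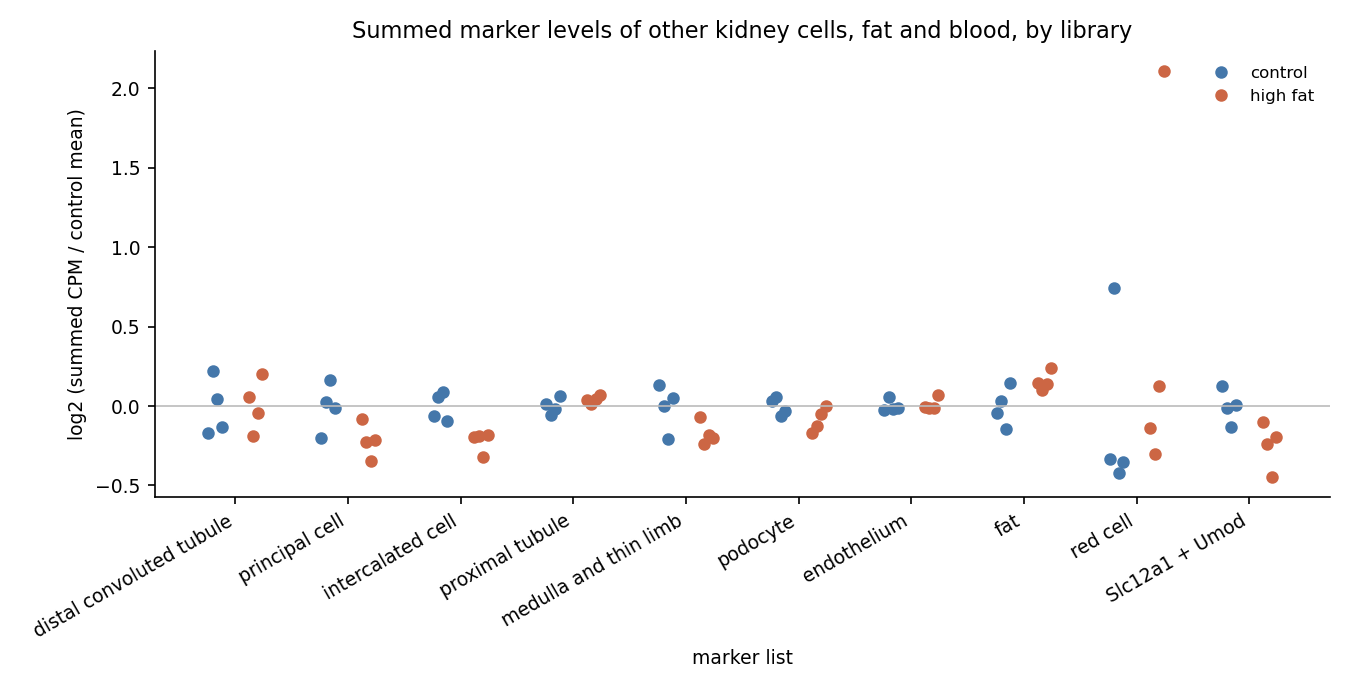
Summed CPM of each marker list in each library, as log2 of its ratio to the control mean (vertical axis). Points are libraries. Intercalated cell sums do not overlap between the diets, and the red cell sums of high fat G (2332 CPM) and control J (904 CPM) stand above the rest.

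Genes outside the 8 whose profile was most like theirs were sought among 12354 genes whose mean reached 1 CPM and whose symbol was not a provisional one. Likeness was the Pearson correlation, over the 8 libraries, with the mean of the standardized log2 levels of the 8 genes. It is a description: the libraries share the diet difference, and the best of many genes is high by selection. The 4 most alike were Trim16 (0.99), Gpx6 (0.99), Tmem72 (0.98) and Oxr1 (0.98), which fell by 0.44, 0.82, 0.22 and 0.23 on the log2 scale (adjusted p of 0.0298, 0.0070, 0.0328 and 0.0163 in edgeR). After each diet's mean was subtracted, Krtcap3, Filip1l, Gpx6, Trim16 and Itih2 led, at 0.95 to 0.96, so Gpx6 and Trim16 were on both lists. Krtcap3 did not fall (log2 difference 0.20, adjusted p = 0.36 in edgeR).

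In the authors' deposited table by gene symbol, 4 of the 8 genes are among 1133 listed genes, beside 23504 symbols with counts. All 4 have a fold of high fat over control below 1, as 593 of the listed genes have. In the authors' deposited table the fold is 0.696 for Slc12a1, 0.717 for Bsnd, 0.682 for Cldn16 and 0.764 for Ppp1r1a. Kcnj1 and Cldn19, called in edgeR, are not among the genes listed in the authors' deposited table, nor are Umod and Ptger3. The highest probability listed there (column PPEE) is 0.0499, and genes not listed have no value in it.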

How the data were processed

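Renal cortex RNA of 4 high fat and 4 control libraries was sequenced. The tools named in the submitters' processing notes are RSEM 1.2.9 and CASAVA 1.8.2, and the build is mm10. What the authors deposited are expected counts and FPKM by gene symbol (per the file headers) and tables of their own comparison that hold a fold (high fat to control, a ratio) and a probability between 0 and 1 (column PPEE), made with a tool the sources used here do not name. Expected counts were rounded, Rn45s was removed, and edgeR 4.0.16 in R 4.3.3 (filterByExpr, TMM, quasi-likelihood F test, diet as the only term) was run on all genes. Each SE is the size of the log2 change over the root of its F value. The procedure was also run on simulated counts drawn independently for each gene and library. That setting lacks departures such as the red cell levels of control J and high fat G, and nothing here rests on it. Alternatives used DESeq2 1.42.0, limma 3.58.1 (also on log2 FPKM), other scalings, filters and thresholds, and left out libraries; limma on rescaled FPKM was added after the data were seen. The letters that name libraries differ between the diets, so nothing pairs them.

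The 8 genes, the lists and the tests were chosen with earlier results of these data known. Named are the 8 genes, called genes and up to 3 of smallest p in each of the 5 role lists, the 5 genes most like the 8 by each measure, and further list genes as examples of a count, chosen after their values were seen. Gene positions are from GENCODE M21 (GRCm38), motif windows from RefSeq. Wnk3 found no match and was not analysed here. Some genes that these rules name are counted but not reported here by name, and the plot by role omits them. Depth without Rn45s was 13993652 to 30403685 counts.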

Additional observations from a re-analysis of the deposited data

Results flagged for a closer look

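A library was picked out in a group of 4 when its gap to the nearest value took an unusually large share of the group's range (Dixon's test at the 95% level). Of 60 groups checked 7 had such a library. Chance gives about 1 in 20 for independent groups of normally distributed values. These groups share the same 8 libraries and some sums share genes, so the 7 cannot be judged by that rate. Kcnj1 was lowest in high fat F, at 201 CPM against 226 to 230.1 in the other 3 libraries. The intercalated cell sum was also lowest in high fat F, at 679 CPM against 739.9 to 745. Endothelial sums were highest in high fat G (571 CPM against 539 to 542) and in control J (566 CPM against 535 to 539.9). Red cell sums were highest in the same pair of libraries, at 2332 CPM in G against 438 to 589 and 904 CPM in J against 404 to 429.6. Rn45s took 50.3% of counts in control J against 1.23% to 5.70% in the other control libraries.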

How the results depend on the processing

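Of 184 values of the 8 log2 fold changes under the alternatives, 157 stayed on their side of the threshold and 27 lost the call. Umod and Ptger3, with 23 of these values each, were not called and so could not lose a call. All 27 thus belong to the 6 called genes. The 160 from alternatives that can change the fold were all below 0. Without 1 library, 4 (without high fat F or control I) to 6 of the 8 genes were lower, all genes called ran from 739 (without F) to 1528 (without M), other thick ascending limb genes called lower from 2 (without F or I) to 7, and the Slc12a1 to Umod ratio from -0.43 to -0.32 (exact permutation p of 0.0286 without I or J and 0.0571 without any of the other 6, over 35 assignments). Without J and G, 417 genes, 2 of the 8 and 2 lower and 1 higher of the other genes were called, and the ratio was -0.44 (exact p = 0.1, the smallest 20 assignments allow). Control J carries the effect of Rn45s into FPKM as deposited: limma on log2(FPKM + 0.1) called 91 genes (27 lower, 64 higher), and with a pseudocount of 1 it called 98, with 0 of the 8 lower, 0 of the others lower and 1 higher in both, and the median change of all genes was 0.14 and 0.11. Rescaled FPKM called 873 genes, 6 of the 8, and 4 lower and 1 higher of the others. Total counts without TMM called 1 other gene higher (2.86% of all genes), and DESeq2 called 11 lower (6.02% of all genes). At an adjusted p under 0.1, 2547 genes and 11 others lower were called, and under 0.01, 330 genes, 1 of the 8, and 1 lower and 0 higher of the others. Apart from the FPKM rescaling and the fits with fewer samples, the cause was not tested. Cldn16 had the fewest counts of the 8, down to 92 in control J, and its call held without J.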
